A study of Drosophila melanogaster with 15 samples.

Results

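The data describe 10 autophagy genes of *Drosophila melanogaster*, taken as the rows of the deposited abundance table whose gene name is *Atg1*, *Atg13*, *Atg17*, *Atg9*, *Atg18a*, *Atg5*, *Atg7*, *Atg8a*, *ref(2)P* or *Mitf*, with the values of all transcripts of a gene added. All 10 were found among the 17031 genes of the table, as 26 transcripts. Autophagy is the process by which a cell encloses parts of its cytoplasm, or whole organelles, in a double membrane and delivers them to the lysosome for breakdown. The Atg1 kinase complex starts it when nutrients or energy run low, a lipid kinase complex and membrane carriers build the enclosing sheet, and 2 ubiquitin-like conjugation systems attach Atg8a to that sheet so that it can grow and bind cargo. In mammals, low oxygen is known to raise autophagy, and factors of the FOXO family are known to activate several autophagy genes. RNA levels were measured here, and the autophagic process itself was not.

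Whole adult females were used, all mated and about 7 days old, and each library held the RNA of 5 flies. The groups were *foxo* mutants after 16 h in a flow of 1% oxygen and 99% nitrogen (*foxo* hypoxia, 4 libraries) and *foxo* mutants kept in ambient air (*foxo* normoxia, 4 libraries). The control line w1118 was treated alike (w1118 hypoxia, 4 libraries, and w1118 normoxia, 3 libraries numbered 2 to 4). The mutant carries the null allele foxoΔ94, in every cell of the fly, and its stock is kept over the TM6B balancer. How far the 2 lines share their genetic background is not given in the sources used here, so the allele and the background of its line cannot be told apart. Of the members, 4 lie on chromosome 3, as *foxo* does.

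Values are TPM, a measure of transcript abundance that is scaled to transcript length and to one total per library. They can therefore be compared between genes, but they keep no number of reads, and the depth of each library is unknown. The *foxo* transcript checked the labels, with at most 0.257 TPM in any mutant library, against 29.8 ± 9.05 TPM in w1118 hypoxia (mean ± SD, n = 4) and 20.7 ± 0.586 TPM in w1118 normoxia (n = 3). Tests were run with limma on log2(TPM + 1) for the 10288 genes with a mean of at least 1 TPM in a group, which all 10 members passed. A gene is said to rise or fall at an adjusted p under 0.05 (Benjamini-Hochberg over all genes tested), and folds are on the log2(TPM + 1) scale. Female tissue markers were present, with yolk protein genes between 2267 and 27257 TPM in sum, and 6 male markers summed to at most 0.812 TPM in any library.

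Several markers of cell types moved with hypoxia. The 10 eggshell genes summed to 4190 to 13463 TPM in *foxo* hypoxia and 9645 to 26192 TPM in *foxo* normoxia, and to 6370 to 9277 TPM in w1118 hypoxia and 28270 to 38606 TPM in w1118 normoxia. The 4 enterocyte genes summed to 3182 to 4817 TPM in *foxo* hypoxia and 10604 to 14009 TPM in *foxo* normoxia, and to 1082 to 1759 TPM in w1118 hypoxia and 8031 to 11909 TPM in w1118 normoxia. The 4 fat body genes summed to 107 to 149 TPM in *foxo* hypoxia and 268 to 386 TPM in *foxo* normoxia, and to 43.7 to 118 TPM in w1118 hypoxia and 131 to 233 TPM in w1118 normoxia. The 3 yolk protein genes summed to 8424 to 11782 TPM in *foxo* hypoxia and 18413 to 22344 TPM in *foxo* normoxia, and to 2267 to 4779 TPM in w1118 hypoxia and 14719 to 27257 TPM in w1118 normoxia. These 4 sums were lower in every hypoxia library than in every normoxia library of the same line, apart from the eggshell sum, which overlapped in *foxo* mutants. In *foxo* mutants the 5 flight muscle genes (218 to 295 TPM in hypoxia and 324 to 398 TPM in normoxia) and the 5 neuronal genes (11.6 to 16.8 TPM in hypoxia and 17.8 to 21.3 TPM in normoxia) were separate as well. In w1118 they overlapped, with 155 to 287 TPM in hypoxia and 234 to 291 TPM in normoxia for flight muscle, and 10.5 to 34.6 TPM in hypoxia and 12.0 to 14.96 TPM in normoxia for neurons. The part of these tissues in the results below was not tested. In whole flies, fewer cells of a type and less RNA per cell cannot be told apart.

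Some libraries stood apart from their group. All 10 members lay below their own group mean in *foxo* hypoxia 2, *foxo* normoxia 1 and w1118 hypoxia 1, and all 10 lay above it in *foxo* hypoxia 4, w1118 hypoxia 2, w1118 hypoxia 4 and w1118 normoxia 4. The genes as a whole leaned the same way in these libraries. In *foxo* hypoxia 2 the median member lay at −0.53 and the median of all genes at −0.32 on the log2 scale, and in *foxo* hypoxia 4 they lay at 0.59 and 0.32. In w1118 hypoxia 1 they lay at −0.49 and −0.24.

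**Figure D1:**
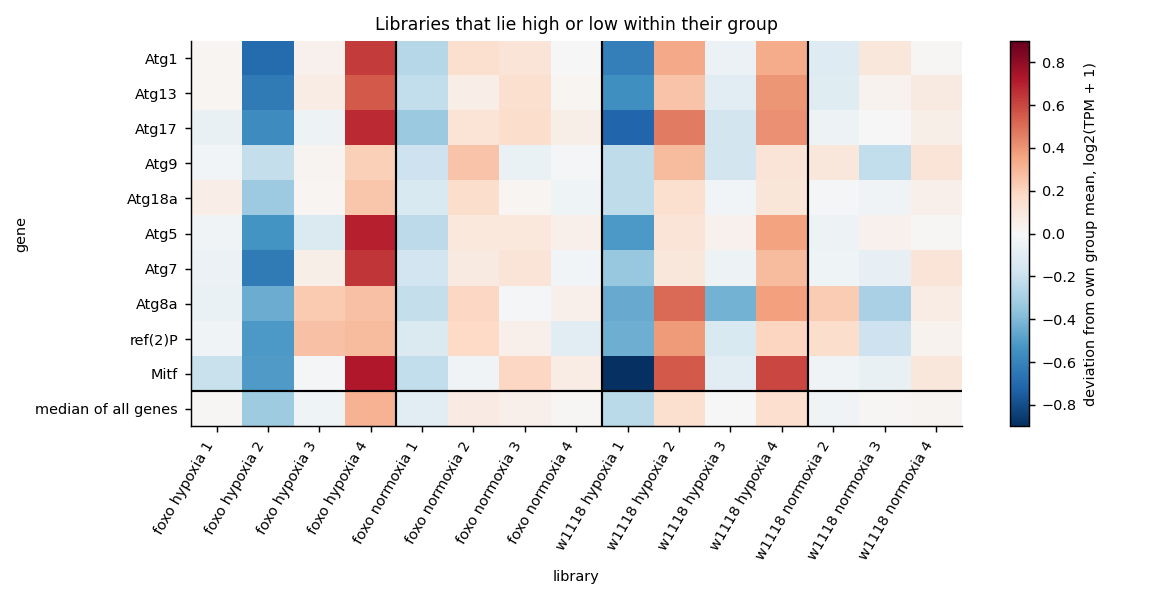
Deviation of each member (rows) from the mean of its own group in each of the 15 libraries (columns, divided by group), in log2(TPM + 1), with the median deviation of all genes tested in the bottom row. Red is above and blue below the group mean; *foxo* hypoxia 2 and w1118 hypoxia 1 are blue for all 10 members, and *foxo* hypoxia 4 is red for all 10.

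Over the 15 libraries the members fell into 2 levels. The cargo receptor gene *ref(2)P* averaged 206 TPM, above 94.6% of the genes tested, and *Atg8a* 185 TPM, above 93.7%. The other 8 averaged between 12.8 TPM (*Atg7*) and 41.7 TPM (*Atg18a*), in the order *Atg18a*, *Mitf* (35.1 TPM), *Atg1* (31.4 TPM), *Atg13* (24.8 TPM), *Atg17* (19.6 TPM), *Atg9* (19.0 TPM), *Atg5* (17.8 TPM) and *Atg7*. This is the order of the means over all libraries, and single groups departed from it. *Atg8a* stood above *ref(2)P* in w1118 (249 and 227 TPM in hypoxia, 157 and 143 TPM in normoxia). *Mitf* stood below *Atg1* in hypoxia in both lines and above *Atg18a* in normoxia in both. Neighbours in this order overlapped in their libraries, whereas the lowest library of *Atg8a* (118 TPM) lay above the highest of *Atg18a* (60.4 TPM). The gene that varied most was *Atg17*, whose highest library was 3.77 times its lowest, and the one that varied least was *Atg18a*, at 1.91 times.

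**Figure D2:**
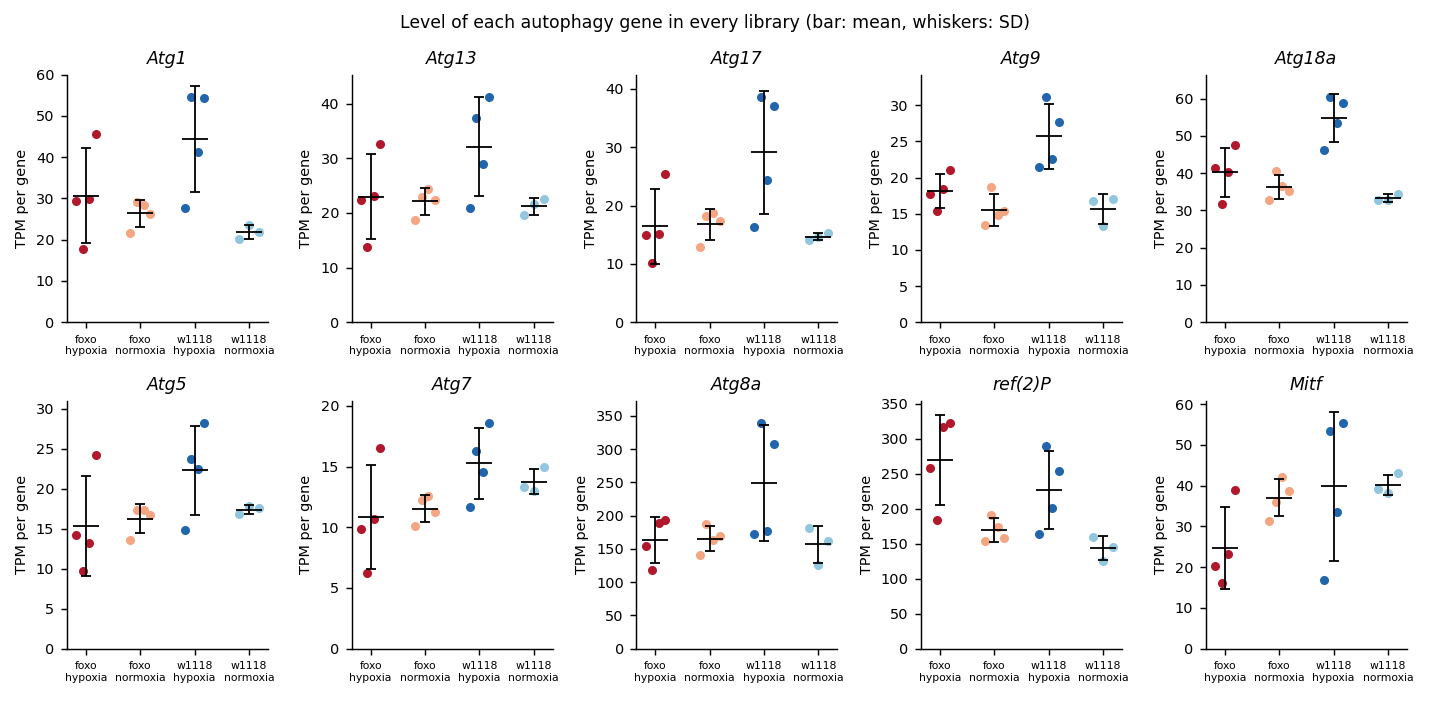
TPM per gene (vertical axes, from 0) of the 10 members in every library, by group; points are libraries, horizontal bars are means and whiskers are SD. For *Atg1*, *Atg17*, *Atg9*, *Atg18a* and *ref(2)P* all 4 w1118 hypoxia libraries lie above all 3 w1118 normoxia libraries, and *ref(2)P* has a mean of 270 TPM in *foxo* hypoxia and 169 TPM in *foxo* normoxia.

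The first question was how the genes respond to low oxygen in each line. In *foxo* mutants, 1 of the 10 members rose (*ref(2)P*) and 0 fell, beside 9.34% of all genes tested that rose and 13.5% that fell, so the share that rose is near the background. *ref(2)P* was also the only member with an unadjusted p under 0.05 there, beside 3510 of 10288 genes. In w1118, 5 of the 10 rose (*Atg1*, *Atg17*, *Atg9*, *Atg18a* and *ref(2)P*) and 0 fell, beside 16.2% of all genes that rose and 9.84% that fell. A sixth, *Atg8a*, had a positive change with an unadjusted p under 0.05. Of 10288 genes, 4023 had such a p in w1118 in either direction. The median change of the 10 was −0.019 in *foxo* mutants, where that of all genes was −0.041, and 0.62 in w1118, where that of all genes was 0.22. With median-of-ratios scaling the median of all genes moved to 0.032 in *foxo* mutants and to 0.013 in w1118, and the same 5 members rose in w1118. That scaling left *ref(2)P* as the riser in *foxo* mutants and added a fall of *Mitf*. The 5 rises in w1118 were smaller with it than those given below. They were 0.72 (*Atg1*), 0.64 (*Atg17*), 0.45 (*Atg9*), 0.46 (*Atg18a*) and 0.40 (*ref(2)P*). With the slope of level on transcript length of each library as a covariate, *Atg1* rose by 0.44 and *Atg17* by 0.33.

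In w1118 the number that rose depended on single libraries. It was 2 without normoxia 2, normoxia 3, normoxia 4 or hypoxia 4, 3 without hypoxia 2, 5 without hypoxia 3 and 7 without hypoxia 1. *Atg18a* rose in all 7 of these fits. For the fits without hypoxia 1, hypoxia 2 or hypoxia 4 no share of all genes is given, so these counts stand without a background. Without normoxia 2, 3 or 4 or hypoxia 3 the share of all genes that rose also changed, as given below with the other pathway genes. The swing in the counts is therefore not a result about the members alone. With the replicate number as a block within each line, 7 members rose in w1118, *Atg13* and *Atg8a* being added to the 5. No share of all genes is given for this fit either. This block gives the w1118 hypoxia 1 library, which has no normoxia partner, a term of its own, so its estimates in w1118 equal those without that library.

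**Figure D3:**
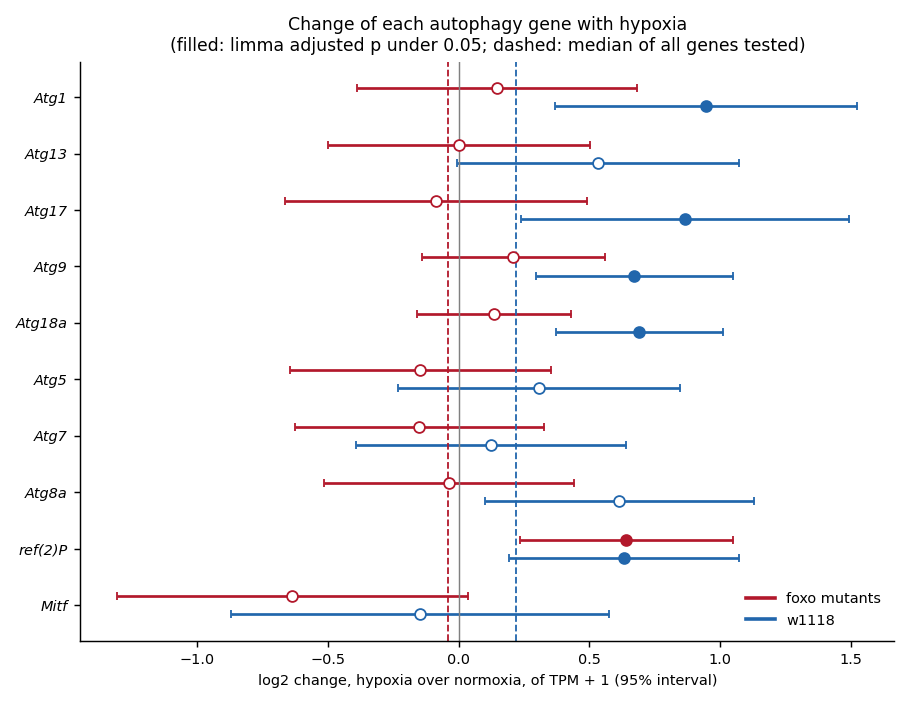
Change with hypoxia of each member (log2 of TPM + 1, hypoxia over normoxia, with 95% intervals) in *foxo* mutants (red, upper of each pair) and w1118 (blue, lower). Filled points passed an adjusted p under 0.05, and dashed lines mark the median of all genes tested in each line (−0.041 and 0.22); 5 blue points and 1 red point are filled.

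*Atg1* encodes the kinase that starts autophagy, the counterpart of mammalian ULK1, and lies on 3L at 12784429 to 12805116 of dm6, on the minus strand. Levels were 29.5, 17.6, 30.0 and 45.6 TPM in *foxo* hypoxia and 21.7, 29.1, 28.4 and 26.2 TPM in *foxo* normoxia. Levels in w1118 were 27.6, 54.6, 41.3 and 54.3 TPM in hypoxia and 20.1, 23.5 and 22.0 TPM in normoxia. The groups overlapped in the mutants and did not overlap in w1118, where every hypoxia library was higher. For scale, 25.2% of all genes tested were higher and 12.5% lower in every hypoxia library of w1118 than in any normoxia library, beside 10.3% higher and 16.1% lower in *foxo* mutants. The log2 change was 0.15 (SE 0.252, limma adjusted p = 0.743) in *foxo* mutants and 0.95 (SE 0.272, adjusted p = 0.0190) in w1118, a 1.93-fold rise. The adjusted p in w1118 was 0.0746 without normoxia 2, 0.0583 without normoxia 4 and 0.0562 without hypoxia 4.

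*Atg17*, on 3R at 5669713 to 5679930 (plus strand), encodes the large scaffold of the same complex, the counterpart of mammalian FIP200. It stood at 14.9, 10.2, 15.1 and 25.5 TPM in *foxo* hypoxia and at 13.0, 18.2, 18.7 and 17.3 TPM in *foxo* normoxia. The w1118 libraries stood at 16.4, 38.6, 24.4 and 37.1 TPM in hypoxia and at 14.2, 14.6 and 15.3 TPM in normoxia. All w1118 hypoxia libraries were again the higher ones, although hypoxia 1 exceeded the highest normoxia library by little. On the log2 scale it changed by −0.087 (SE 0.272, limma adjusted p = 0.864) in *foxo* mutants and 0.87 (SE 0.294, adjusted p = 0.0412) in w1118. This was the least firm of the 5 rises, as it passed without hypoxia 1 and missed the threshold without any 1 of the other 6 libraries of w1118 (adjusted p from 0.0602 to 0.118). It also missed the threshold with the main transcript alone (adjusted p = 0.0584) and with no filter on low genes (adjusted p = 0.0646).

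*Atg13*, on 3R at 8349815 to 8352817 (plus strand, a single exon), encodes the regulatory subunit that binds Atg1. It stood at 22.3, 13.8, 23.1 and 32.7 TPM in *foxo* hypoxia and at 18.8, 23.0, 24.5 and 22.4 TPM in *foxo* normoxia. In w1118 it stood at 20.9, 37.3, 29.0 and 41.2 TPM in hypoxia and at 19.5, 21.6 and 22.5 TPM in normoxia. Both pairs of groups overlapped, in w1118 through hypoxia 1 alone. Its log2 change was −0.00036 (SE 0.235, limma adjusted p = 1) in *foxo* mutants and 0.53 (SE 0.254, adjusted p = 0.134) in w1118. With the replicate block it was 0.72 in w1118 (adjusted p = 0.0430).

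*Atg9* and *Atg18a* act in the growth of the membrane. Atg9 is the transmembrane protein whose vesicles seed the sheet, and its gene is a single exon on 2R at 16294400 to 16297232 (plus strand). It stood at 17.7, 15.4, 18.4 and 21.1 TPM in *foxo* hypoxia and at 13.5, 18.7, 14.8 and 15.4 TPM in *foxo* normoxia. The w1118 libraries held 21.5, 31.1, 22.5 and 27.7 TPM in hypoxia and 16.8, 13.3 and 17.0 TPM in normoxia. The w1118 groups were separate and those of the mutant overlapped, with a log2 change of 0.21 (SE 0.164, limma adjusted p = 0.418) in *foxo* mutants and 0.67 (SE 0.178, adjusted p = 0.0118) in w1118. Without w1118 normoxia 3, the lowest of its group, the adjusted p in w1118 was 0.0618.

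Atg18a, a WIPI family protein, binds the lipid phosphatidylinositol 3-phosphate on the growing membrane, and its gene lies on 3L at 8186857 to 8191118 (plus strand). *Atg18a* stood at 41.5, 31.6, 40.4 and 47.6 TPM in *foxo* hypoxia and at 32.8, 40.5, 36.6 and 35.2 TPM in *foxo* normoxia. Levels in w1118 were 46.3, 60.4, 53.5 and 58.9 TPM in hypoxia and 32.9, 32.7 and 34.5 TPM in normoxia. It had the widest gap between the w1118 groups and the smallest adjusted p of the 10 there. On the log2 scale it changed by 0.13 (SE 0.139, limma adjusted p = 0.553) in *foxo* mutants and 0.69 (SE 0.150, adjusted p = 0.00328) in w1118, a 1.62-fold rise.

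The 3 conjugation genes did not pass the test in either line. *Atg8a*, on the X chromosome at 10764878 to 10768338 (minus strand), encodes the ubiquitin-like protein that is attached to the membrane, the counterpart of mammalian LC3 and GABARAP. It stood at 154, 118, 189 and 193 TPM in *foxo* hypoxia and at 141, 187, 163 and 169 TPM in *foxo* normoxia. In w1118 it stood at 173, 339, 176 and 308 TPM in hypoxia and at 181, 126 and 162 TPM in normoxia. Hypoxia 2 and hypoxia 4 of w1118 were far above all other libraries, and hypoxia 1 and hypoxia 3 lay within the normoxia range. Its log2 change was −0.037 (SE 0.224, limma adjusted p = 0.933) in *foxo* mutants and 0.61 (SE 0.242, adjusted p = 0.0741) in w1118. With the replicate block it was 0.77 in w1118 (adjusted p = 0.0143), and without w1118 hypoxia 3 the adjusted p was 0.0435.

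*Atg5* encodes the partner of Atg12 in the conjugate that helps attach Atg8a. It averaged 15.3 ± 6.21 TPM in *foxo* hypoxia and 16.3 ± 1.78 TPM in *foxo* normoxia (SD, n = 4 each), and 22.3 ± 5.52 TPM in w1118 hypoxia (n = 4) and 17.4 ± 0.545 TPM in w1118 normoxia (n = 3). *Atg7* encodes the activating enzyme of both conjugation systems, and averaged 10.8 ± 4.27 TPM in *foxo* hypoxia and 11.5 ± 1.12 TPM in *foxo* normoxia, and 15.3 ± 2.91 TPM in w1118 hypoxia and 13.8 ± 1.06 TPM in w1118 normoxia. For both genes hypoxia and normoxia overlapped in both lines. The log2 change of *Atg5* was −0.15 (95% interval −0.65 to 0.35) in *foxo* mutants and 0.31 (−0.23 to 0.85) in w1118. That of *Atg7* was −0.15 (−0.63 to 0.33) in *foxo* mutants and 0.12 (−0.39 to 0.64) in w1118, so neither interval leaves out a moderate change.

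*ref(2)P*, on 2L at 19542468 to 19545548 (plus strand), encodes the fly counterpart of p62, a receptor that carries ubiquitylated cargo into the autophagosome and is itself degraded there. It was the member that rose in both lines. It stood at 258, 184, 316 and 322 TPM in *foxo* hypoxia and at 154, 192, 174 and 158 TPM in *foxo* normoxia. The w1118 libraries had 164, 289, 201 and 253 TPM in hypoxia and 159, 125 and 146 TPM in normoxia. The w1118 groups were separate, and in the mutant 3 of the 4 hypoxia libraries lay above all normoxia libraries, with hypoxia 2 inside their range. The log2 change was 0.64 (SE 0.191, limma adjusted p = 0.0240) in *foxo* mutants and 0.63 (SE 0.207, adjusted p = 0.0348) in w1118. The rise in w1118 missed the threshold with no filter on low genes (adjusted p = 0.0538) and with a length slope of each library in the fit (0.29, adjusted p = 0.0878). In the main fit the changes of the 2 lines were near equal, with a difference of 0.0073 (95% interval −0.59 to 0.61). With median-of-ratios scaling they were 0.72 in *foxo* mutants and 0.40 in w1118.

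Both rises of *ref(2)P* rested on few libraries. That in *foxo* mutants missed the threshold without normoxia 1, normoxia 4, hypoxia 3 or hypoxia 4 (adjusted p from 0.0587 to 0.0741), and that in w1118 missed it without normoxia 2, 3 or 4 or hypoxia 2 or 4 (0.0585 to 0.121). The rise in w1118 also missed the threshold with no filter on low genes (0.0538) and with the slope of level on transcript length of each library as a covariate (0.0878). *ref(2)P* shares 173 exon bases with *CG10337* on the opposite strand (mean 9.34 TPM over all libraries), and whether strand was used in the assignment of reads is not given in the sources used here.

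*Mitf*, on chromosome 4 at 1198852 to 1224467 (plus strand), encodes the fly counterpart of TFEB, a transcription factor that activates lysosomal and autophagy genes. It stood at 20.2, 16.1, 23.2 and 39.0 TPM in *foxo* hypoxia and at 31.4, 36.0, 42.1 and 38.7 TPM in *foxo* normoxia. In w1118 it stood at 16.9, 53.4, 33.5 and 55.3 TPM in hypoxia and at 39.2, 38.3 and 43.0 TPM in normoxia. In the mutant 3 of the 4 hypoxia libraries of *Mitf* lay below all normoxia libraries, whereas in w1118 the hypoxia libraries lay on both sides of the normoxia range. On the log2 scale it changed by −0.64 (SE 0.315, limma adjusted p = 0.170) in *foxo* mutants and −0.15 (SE 0.340, adjusted p = 0.769) in w1118. In the mutant it passed as a fall with median-of-ratios scaling (−0.56, adjusted p = 0.0477), with a trimmed mean of M values (−0.59, 0.0340), with the length slope as a covariate (−0.59, 0.00140) and without hypoxia 4 (−0.88, 0.0492).

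The next question was whether the response to hypoxia differed between the lines, which the difference of the 2 log2 changes tests (*foxo* minus w1118). With limma, 0 of the 10 members passed in either direction, beside 1.07% of all genes above and 1.55% below 0. At an unadjusted p under 0.05, 3 passed: *Atg17* with −0.95 (95% interval −1.80 to −0.10, adjusted p = 0.314), *Atg1* with −0.80 (−1.59 to −0.011, adjusted p = 0.380) and *Atg18a* with −0.56 (−0.99 to −0.12, adjusted p = 0.214). The difference was below 0 for 9 of 10, *ref(2)P* being the exception, with a median of −0.51. Among all 10288 genes, 1319 had an unadjusted p under 0.05, 2440 were above 0 and the median was −0.23. Median-of-ratios scaling moved the median of all genes to 0.060, left 8 members below 0 (*Atg7* at 0.016, *ref(2)P* at 0.32) and brought *Atg17* to −0.65, *Atg1* to −0.49 and *Atg18a* to −0.25. The count of 0 held without each of the 15 libraries in turn. Hence rises that passed in w1118 and not in the mutants are not shown to differ between the lines.

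Set side by side in hypoxia, 1 member was lower in *foxo* mutants than in w1118 (*Atg18a*) and 0 were higher, beside 9.42% of all genes lower and 7.65% higher. *Atg18a* averaged 40.2 ± 6.57 TPM in *foxo* hypoxia and 54.8 ± 6.38 TPM in w1118 hypoxia (SD, n = 4 each). Its difference was −0.44 (SE 0.139, limma adjusted p = 0.0389), and the groups overlapped by 1 mutant library (47.6 TPM, against a lowest w1118 value of 46.3 TPM). *Atg9* was lower in every mutant library, at 15.4 to 21.1 TPM against 21.5 to 31.1 TPM, but missed the threshold (−0.47, adjusted p = 0.0611), where 8.49% of all genes were lower and 7.67% higher in every library. *Atg17* also missed it (−0.78, adjusted p = 0.0612). In all, 7 members had an unadjusted p under 0.05, and each of these was lower in the mutants. All genes leaned the same way. Of 10288, 3219 had an unadjusted p under 0.05 and 2870 were above 0, with a median difference of −0.22.

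*ref(2)P* stood on the other side in hypoxia, with 270 ± 64.2 TPM in *foxo* mutants and 227 ± 55.5 TPM in w1118 (0.25, SE 0.191, limma adjusted p = 0.372). It was called higher with median-of-ratios scaling (0.50, adjusted p = 0.00813). The comparison in hypoxia was the least stable of the set. Under median-of-ratios scaling *Atg17* (adjusted p = 0.0193) took the place of *Atg18a* (0.113), and the count of lower members was 9 without *foxo* hypoxia 4, 7 without w1118 hypoxia 1 and 0 without any 1 of the other 6 hypoxia libraries. The share of all genes that were lower was also larger without *foxo* hypoxia 4, as given below. The 9 is therefore not a result about the members alone. For the fit without w1118 hypoxia 1 no share of all genes is given, so the 7 stands without a background.

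In normoxia 0 members differed between *foxo* mutants and w1118, beside 5.52% of all genes higher and 3.14% lower. Of the members 0 had an unadjusted p under 0.05, beside 2080 of 10288 genes. The log2 differences ran from −0.24 (*Atg7*) to 0.25 (*Atg1*), with a median of 0.070. *Atg7* stood at 10.1, 12.2, 12.6 and 11.3 TPM in *foxo* normoxia, below a lowest value of 13.0 TPM in w1118 normoxia. Groups were separate in this direction for 15.5% of all genes and in the other for 20.4%, and the adjusted p of *Atg7* was 0.661.

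The transcripts show what the sums per gene hide. Of the 26 transcripts of the members, 24 had a mean of at least 1 TPM in a group and were tested among 18362. Of these, 2 reached 1 TPM in a single normoxia group only, so that a fall with hypoxia was fixed by the filter, and they are given below as levels. Of the other 22, 1 rose in *foxo* mutants in hypoxia and 9 rose in w1118, beside 6.54% and 14.8% of all transcripts tested. With limma 0 of the 22 fell in either line (2 in *foxo* mutants and 1 in w1118 had an unadjusted p under 0.05), beside 10.9% in *foxo* mutants and 8.72% in w1118. Transcripts of a gene share most of their sequence, so how reads were divided between them is uncertain. Both transcripts of *Atg9* carried the same values, and both are counted among the 22 and among the 9 that rose in w1118.

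The main *ref(2)P* transcript, NM_001014491.2, was the steadier of its pair. It stood at 223, 184, 308 and 322 TPM in *foxo* hypoxia and at 117, 147, 120 and 148 TPM in *foxo* normoxia, and at 159, 176, 159 and 184 TPM in w1118 hypoxia and 121, 114 and 112 TPM in w1118 normoxia. Hypoxia lay above normoxia in every library of both lines, with a log2 change of 0.93 (SE 0.161, limma adjusted p = 0.000720) in *foxo* mutants and 0.54 (SE 0.174, adjusted p = 0.0338) in w1118. In hypoxia it was also higher in *foxo* mutants than in w1118, by 0.58 (adjusted p = 0.0250), while the difference between the 2 responses (0.38, adjusted p = 0.470) did not pass. The second transcript, NM_057352.4, ran from 4.59e-05 to 34.9 TPM in *foxo* hypoxia, 10.2 to 54.2 TPM in *foxo* normoxia, 4.36 to 113 TPM in w1118 hypoxia and 10.9 to 38.0 TPM in w1118 normoxia. It averaged 4.03% of the gene in *foxo* hypoxia, 21.2% in *foxo* normoxia, 22.6% in w1118 hypoxia and 18.6% in w1118 normoxia. Its log2 change with hypoxia in *foxo* mutants was −2.87 (SE 1.07, unadjusted p = 0.0165, limma adjusted p = 0.0783), and in hypoxia it differed between *foxo* mutants and w1118 by −3.07 (SE 1.07, unadjusted p = 0.0112, adjusted p = 0.0680). The sum over both transcripts carries this spread.

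The smallest *Atg8a* transcript, NM_001298159.1, gave the 1 difference in response that passed among the 24, beside 0.801% of transcripts above and 1.48% below 0. It stood at 1.34, 1.03, 2.002 and 1.69 TPM in *foxo* hypoxia and at 1.52, 1.81, 2.27 and 1.75 TPM in *foxo* normoxia. In w1118 it stood at 3.97, 8.14, 3.18 and 6.09 TPM in hypoxia and at 1.97, 1.4996 and 0.997 TPM in normoxia. The w1118 hypoxia libraries were above every other library. The log2 change was −0.18 (SE 0.238, limma adjusted p = 0.680) in *foxo* mutants and 1.30 (SE 0.257, adjusted p = 0.00200) in w1118, and their difference was −1.48 (SE 0.351, adjusted p = 0.0392). This transcript made up only 0.615% to 2.40% of *Atg8a*, whose main transcript NM_167245.3 held 95.1% to 98.5%.

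The second transcript of *Atg1*, NM_001169962.2, rose in w1118 by 1.53 (SE 0.294, limma adjusted p = 0.00165), beside 0.80 (SE 0.275, adjusted p = 0.0459) for the main one, NM_140344.3. Its share of *Atg1* ran from 16.9% to 21.1% in *foxo* hypoxia and from 11.6% to 18.4% in *foxo* normoxia, and from 16.8% to 21.2% in w1118 hypoxia and from 5.77% to 12.5% in w1118 normoxia. The shares were separate between hypoxia and normoxia in w1118 and overlapped in the mutants. The 2 transcripts that reached 1 TPM in a single normoxia group were both low. NM_166298.3 of *Atg7* was listed at 0.117 TPM in w1118 hypoxia 1 and 0 in the other 3 w1118 hypoxia libraries, against 0.870 to 1.93 TPM in w1118 normoxia. NM_001258508.2 of *Mitf* averaged 0.502 TPM in *foxo* hypoxia and 1.43 TPM in *foxo* normoxia, with at most 2.01 TPM in any library.

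Between the lines in hypoxia, 1 transcript was higher and 5 were lower in *foxo* mutants, beside 6.05% and 8.19% of all transcripts. The higher one was the main *ref(2)P* transcript. The lower ones were NM_001298159.1 of *Atg8a* (−1.28, limma adjusted p = 0.00152), NM_141316.2 of *Atg17* (−1.12, adjusted p = 0.0132) and 3 of *Atg18a* (−0.48 to −0.69). In normoxia 0 of the 22 passed with limma, beside 5.54% of all transcripts higher and 3.22% lower. None of the 22 was lower at an unadjusted p under 0.05, and NM_001169962.2 of *Atg1* was higher (0.69, unadjusted p = 0.0330, limma adjusted p = 0.175). The 2 transcripts set aside passed the filter through a single normoxia group, so their direction in this comparison was fixed as well.

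**Figure D4:**
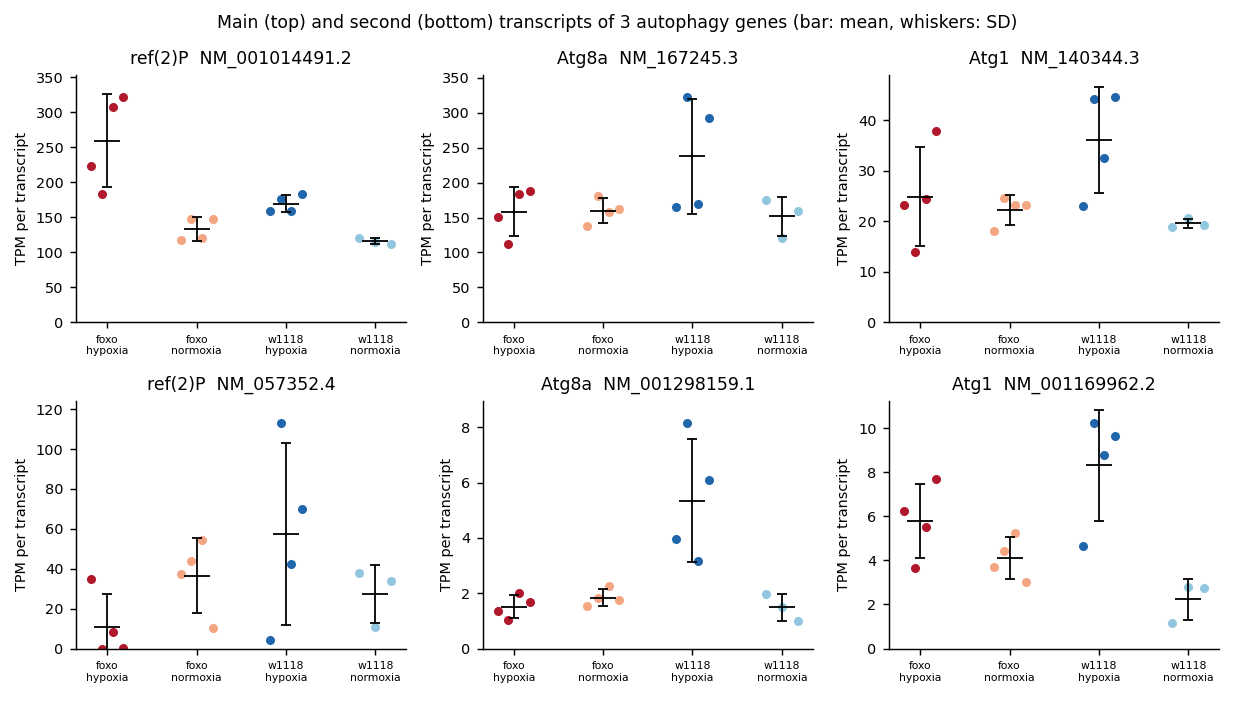
TPM per transcript (vertical axes, from 0) in every library by group, for the main (top) and a minor (bottom) transcript of *ref(2)P*, *Atg8a* and *Atg1*; points are libraries, horizontal bars are means and whiskers are SD. The main *ref(2)P* transcript is highest in *foxo* hypoxia (184 to 322 TPM), and NM_001298159.1 of *Atg8a* is above 3 TPM only in w1118 hypoxia.

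Of 36 other genes of the pathway 35 were tested, *Atg8b* being below the filter (at most 0.177 TPM). In *foxo* mutants with limma 0 rose and 1 fell with hypoxia, beside 9.34% and 13.5% of all genes. There 7 of the 35 had an unadjusted p under 0.05, beside 3510 of 10288 genes. In w1118 14 rose and 0 fell, beside 16.2% and 9.84%. The median log2 change of the 35 was 0.13 in *foxo* mutants, where that of all genes was −0.041, and 0.43 in w1118, where that of all genes was 0.22. The count in the mutants turned on the scaling. With median-of-ratios scaling 10 rose and 5 fell there, beside 16.7% and 16.2% of all genes, while 10 rose and 0 fell in w1118, beside 13.1% and 16.9%. Without w1118 normoxia 2, 3 or 4 or hypoxia 3 the count of rises in w1118 was 7 to 9, beside 8.46% to 12.1% of all genes. In *foxo* mutants 6 rose without hypoxia 2, beside 12.7%, and 4 fell without hypoxia 4, beside 17.4%. When w1118 hypoxia 1 and *foxo* hypoxia 2 were left out together, after their values had been seen, 8 rose and 1 fell in *foxo* mutants, beside 14.2% and 12.7%, and 22 rose and 0 fell in w1118, beside 32.5% and 9.84%.

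All 5 genes of the lipid kinase complex that makes phosphatidylinositol 3-phosphate rose in w1118, with log2 changes of 0.55 to 0.77, and 0 of 5 passed in *foxo* mutants (0.25 to 0.34, 2 with an unadjusted p under 0.05). With median-of-ratios scaling all 5 rose in both lines, by 0.33 to 0.42 in *foxo* mutants and 0.33 to 0.56 in w1118. *Pi3K59F*, which encodes the catalytic subunit Vps34, averaged 18.8 ± 1.66 TPM in *foxo* hypoxia and 14.7 ± 1.15 TPM in *foxo* normoxia (SD, n = 4 each), and 18.5 ± 2.68 TPM in w1118 hypoxia (n = 4) and 10.8 ± 1.17 TPM in w1118 normoxia (n = 3). It changed by 0.33 (limma adjusted p = 0.122) in *foxo* mutants and 0.72 (adjusted p = 0.00364) in w1118. *Vps15*, the regulatory subunit, changed by 0.34 (adjusted p = 0.189) and *Uvrag*, a partner of Atg6, by 0.29 (adjusted p = 0.178) in *foxo* mutants. In w1118 *Vps15* rose by 0.77 (adjusted p = 0.00753) and *Uvrag* by 0.68 (adjusted p = 0.00521), and both, unlike *Atg6* and *Atg14*, also rose without each w1118 library in turn. *Atg6* passed in 4 of these 7 fits and missed the threshold without any 1 of the normoxia libraries (adjusted p from 0.0532 to 0.0610), and *Atg14* passed in 5 and missed it without normoxia 2 (adjusted p = 0.0532) or normoxia 4 (adjusted p = 0.0720). For 0 of the 5 was the difference between the 2 responses past the threshold, with values of −0.43 to −0.21.

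*Atg18b*, a second WIPI family gene beside *Atg18a*, was the pathway gene whose response differed. It averaged 9.28 ± 2.21 TPM in *foxo* hypoxia and 10.1 ± 1.66 TPM in *foxo* normoxia, and 21.3 ± 4.96 TPM in w1118 hypoxia and 9.30 ± 1.14 TPM in w1118 normoxia. It rose in w1118 (1.09, SE 0.223, limma adjusted p = 0.00209), and the difference in response was −1.22 (SE 0.303, adjusted p = 0.0444). This difference passed without 3 of the 15 libraries in turn and missed the threshold without each of the other 12, with no filter on low genes and with a filter of 5 TPM. *CG5059*, the fly counterpart of BNIP3, a mitochondrial receptor for autophagy that low oxygen induces in mammals, averaged 48.8 ± 7.98 TPM in *foxo* hypoxia and 44.2 ± 5.75 TPM in *foxo* normoxia, and 103.9 ± 36.4 TPM in w1118 hypoxia and 39.8 ± 11.2 TPM in w1118 normoxia. It rose in w1118 (1.33, SE 0.256, adjusted p = 0.00136), with a difference in response of −1.20 (adjusted p = 0.0987).

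Among lysosomal genes, which act at the end of the pathway, the proteases *CtsB1* (0.54, limma adjusted p = 0.0110), *Cp1* (0.46, adjusted p = 0.0151) and *cathD* (0.33, adjusted p = 0.0383) rose in w1118. They are abundant, with means of 275, 766 and 413 TPM over all libraries. Their changes in *foxo* mutants were −0.075, 0.15 and 0.19, and 0 of the 3 passed. With median-of-ratios scaling 0 of the 3 passed in w1118 either (adjusted p from 0.254 to 0.776), and *cathD* passed without only 1 of the 7 w1118 libraries in turn. Of the other abundant genes, the cholesterol carrier *Npc2a*, the vesicle GTPase *Rab7* and the lysosomal membrane protein gene *Lamp1* passed in neither line, with 0.27, −0.017 and −0.38 in *foxo* mutants and 0.21, 0.34 and 0.14 in w1118. *Npc1a*, which encodes a sterol transporter of the lysosomal membrane, fell in *foxo* mutants to 8.24 ± 1.77 TPM in hypoxia, against 16.2 ± 2.41 TPM in normoxia (−0.91, adjusted p = 0.00813). In hypoxia 6 of the 35 were lower in *foxo* mutants than in w1118 and 0 higher, beside 9.42% and 7.65% of all genes. The 6 were *Atg18b*, *CG5059*, *CtsB1*, *Cp1*, *cathD* and the Atg8a-processing protease gene *Atg4a*. With median-of-ratios scaling 3 were lower (*Atg18b*, *CG5059* and *Atg4a*), beside 6.41% of all genes, and without *foxo* hypoxia 4 the count was 20, beside 34.3%.

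**Figure D5:**
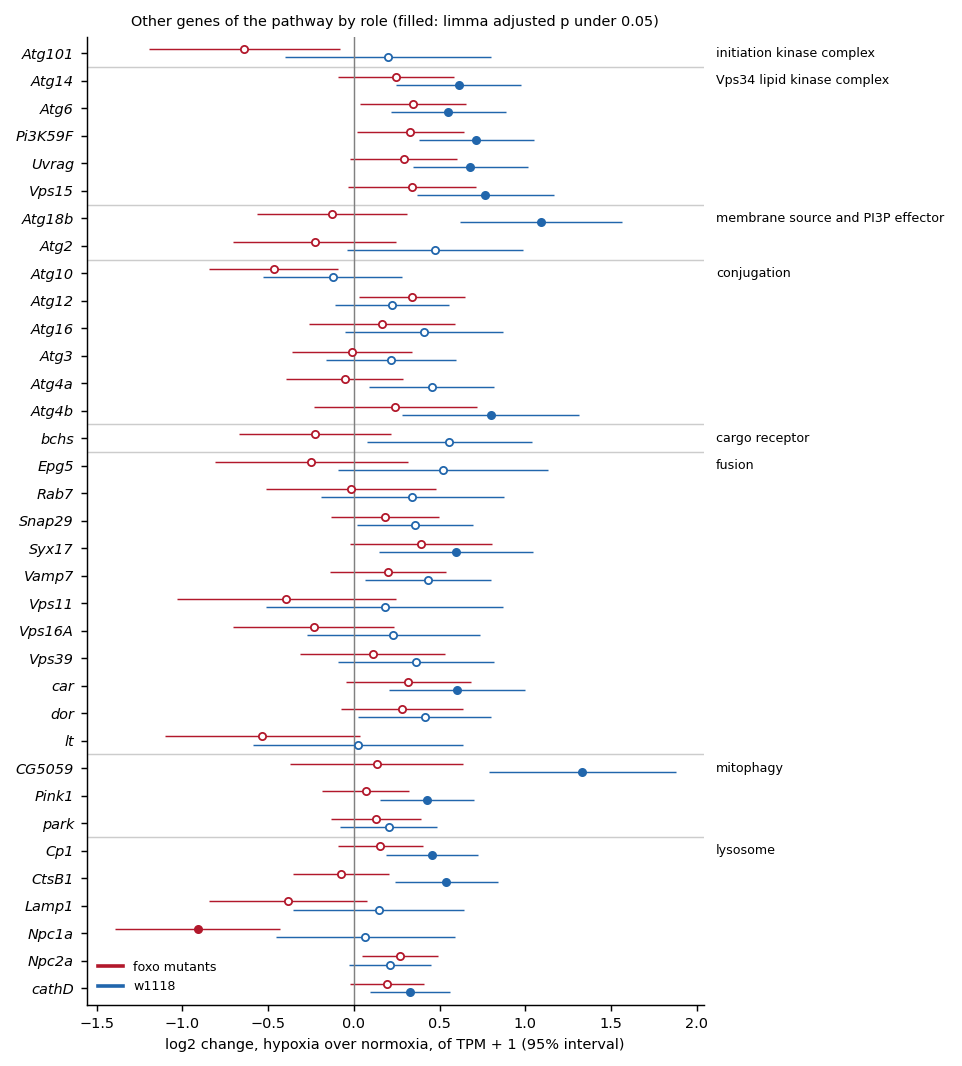
Change with hypoxia (log2 of TPM + 1, hypoxia over normoxia, with 95% intervals) of the 35 other pathway genes tested, by role, in *foxo* mutants (red, upper of each pair) and w1118 (blue, lower). Filled points passed an adjusted p under 0.05: 14 blue points lie above 0, among them all 5 genes of the Vps34 lipid kinase complex, and 1 red point (*Npc1a*) lies below 0.

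The members moved together from library to library. Over the 15 libraries the 45 pairs had Pearson correlations of log2(TPM + 1) from 0.021 (*ref(2)P* with *Mitf*) to 0.97 (*Atg13* with *Atg17*), with a median of 0.79. After the group means were taken off, the range was 0.65 to 0.99 and the median 0.88. These values describe the libraries only, since the pairs share each library's scaling, and the median of all genes moved in the same direction as the members in the libraries named above. Among 7011 genes with a mean of at least 10 TPM, the patterns most like that of *Atg1* were those of *CG18659* (0.990), *Dyb* (0.983) and *baz* (0.982). Those most like *Atg17* were *SNF4Agamma* (0.978), which encodes the gamma subunit of the AMP-activated kinase, *CG11880* (0.976) and *GAPcenA* (0.973), and those most like *Atg18a* were *Fem-1* (0.973), *CG45085* (0.964) and *CG4552* (0.963).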

How the data were processed

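Poly-A libraries were made by the authors with a directional kit and assigned with kallisto to RefSeq mRNAs of the dm6 annotation, and sleuth was used for their tests; their versions are not stated in the sources at hand. The deposited table gives TPM per transcript for 15 libraries (34111 transcripts, 138 blank; library totals 998679.4 to 999016), with no read numbers, so no counting precision can be given. The authors' 2 tables of regulated genes hold their own fold changes and p-values and were not used. TPM were summed per gene (5 gene names written as dates were restored), and log2(TPM + 1) entered one limma model of all 4 groups (limma 3.58.1, R 4.3.3; variance trend on); transcripts were fitted likewise. The fit was tested on simulated data, which gives no evidence on the shifts that genes share within the libraries here. Loci are from Ensembl release 115, of the same assembly.

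Replicates are called independent by the study. Their numbers were checked as pairs from residual correlations: 0.20, −0.071, 0.14 and 0.33 in *foxo* mutants and 0.14, 0.37 and 0.18 in w1118. The main model paired no libraries. The replicate block within each line, run as an alternative, used the numbers of both lines. The members and gene lists were chosen with earlier results of these data known. Named were all members; of the other pathway genes up to 6 with the smallest adjusted p under 0.05 in each hypoxia comparison and those averaging 100 TPM or more; and, for the 3 members that changed most with hypoxia, the 3 genes with the most similar pattern. Genes called between the lines are also named, chosen after their values were seen. Alternatives covered pseudocount, filter, scaling, samples in the fit, variance trend, main transcript, transcript length slope, thresholds, replicate block and single libraries. Promoters and proteins were not analysed here.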

Additional observations from a re-analysis of the deposited data

Results flagged for a closer look

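At the level of whole genes, no library of the 30 combinations of member and group examined (the groups of 4 libraries) stood out by the gap test for an outlying sample. Of 72 combinations of transcript and group, 2 did, where chance flags about 1 in 20. NM_206434.2, the main transcript of *Atg17*, stood at 11.8 TPM in *foxo* normoxia 1, below the 16.4 to 17.0 TPM of the other 3 libraries. NM_166298.3 of *Atg7* stood at 0.117 TPM in w1118 hypoxia 1, where the other 3 libraries were listed at 0. The response of NM_001298159.1 of *Atg8a* to hypoxia differed between *foxo* mutants and w1118 by −1.48 on the log2 scale by the limma test of that difference.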

How the results depend on the processing

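With no read numbers, precision rests on 3 or 4 libraries a group. The 0 differences in response held under all 13 alternatives and without each of 15 libraries. The stricter thresholds among these alternatives could not raise a count of 0, so they add nothing here.

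Members rising in w1118 (5) numbered 3 with no filter (without *Atg17* and *ref(2)P*), 4 with the main transcript (without *Atg17*) or the length slope (without *ref(2)P*), 1 at an adjusted p under 0.01 and 2 to 7 without single libraries, and those falling (0) numbered 1 with the length slope (*Mitf*). In *foxo* mutants the rise (1) went to 0 at 0.01 and was 0 to 1 without single libraries. Falls there (0) numbered 1 (*Mitf*) with median-of-ratios scaling, the trimmed mean, the length slope or the replicate block, and 0 to 1 without single libraries. Of members lower in *foxo* mutants than in w1118 in hypoxia (1), there were 3 with a total that leaves out eggshell and ribosomal protein genes, 0 with only the libraries compared, 2 without the variance trend, 7 with the length slope, 3 without w1118 hypoxia 1 and *foxo* hypoxia 2 (chosen after seeing the data), 0 when over 1.5-fold was also asked or at 0.01, and 0 to 9 without single libraries (the 9 beside 34.3% of all genes). Of members higher (0), there was 1 (*ref(2)P*) with median-of-ratios scaling, the trimmed mean, the main transcript or the length slope. In normoxia 2 (*Atg7*, *Mitf*) were lower with the length slope. Apart from the 34.3%, these counts are given without the share of all genes, so they are not shown to be about the members alone.

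The replicate block within each line gave 7 rises in w1118 and 1 in *foxo* mutants; besides *Atg13* and *Atg8a* in w1118 and *Mitf* in *foxo* mutants, it changed no hypoxia call. A block common to both lines gave *Atg17* in place of *Atg18a* in hypoxia (1 lower). What libraries of the same number share is not given in the sources used here. In *foxo* mutants hypoxia 1 and 2 correlated best with normoxia libraries of other numbers (0.318 and 0.395). Hypoxia 3 and 4 did so with their own numbers (0.139 and 0.331). In w1118 hypoxia 2 correlated best with normoxia 4 (0.161, against 0.142 with normoxia 2). Hypoxia 3 and 4 of w1118 correlated best with their own numbers (0.374 and 0.177).

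Directions turned only for changes that had not passed. With hypoxia in *foxo* mutants, *Atg13* was 0.0068 with a pseudocount of 5, 0.078 with median-of-ratios scaling, 0.049 with the trimmed mean, 0.038 with the reduced total and 0.031 with the length slope, and *Atg8a* was 0.047 with median-of-ratios scaling, 0.016 with the trimmed mean and 0.0036 with the reduced total. Without w1118 hypoxia 1 and *foxo* hypoxia 2, *Atg13*, *Atg17*, *Atg5*, *Atg7* and *Atg8a* were at 0.21, 0.10, 0.032, 0.062 and 0.11 in *foxo* mutants, and *Mitf* at 0.20 in w1118, as with the block. In w1118, *Atg7* was −0.094 with median-of-ratios scaling, −0.12 with the trimmed mean and −0.28 with the length slope, and *Atg5* −0.12 with the last. For the difference in response, *Atg7* was 0.016, 0.012 and 0.16 under the same settings, *Atg5* 0.0047 and *Mitf* 0.19 with the length slope, and *ref(2)P* −0.14 with the replicate block. In normoxia between the lines, the length slope gave −0.011 for *Atg1*, −0.19 for *Atg13*, −0.12 for *Atg17* and −0.11 for *Atg8a*, median-of-ratios scaling −0.00986 for *Atg13*, and the common block 0.038 for *Atg9* and 0.045 for *Mitf*. With a pseudocount of 0.1, NM_166298.3 of *Atg7* was 0.0074 in *foxo* mutants and NM_001274637.1 of *Atg18a* 0.0020 for the difference in response.

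Without single libraries the hypoxia change in *foxo* mutants ran from −0.064 to 0.38 for *Atg1*, −0.18 to 0.21 for *Atg13*, −0.31 to 0.10 for *Atg17*, −0.38 to 0.032 for *Atg5*, −0.36 to 0.062 for *Atg7* and −0.13 to 0.11 for *Atg8a*, that of *Mitf* in w1118 from −0.35 to 0.20, the difference in response of *ref(2)P* from −0.14 to 0.18, and the normoxia difference from −0.0019 to 0.13 for *Atg13*, −0.12 to 0.051 for *Atg9* and −0.060 to 0.20 for *Atg8a*. The causes were not tested.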
